A study of Gallus gallus with 28 samples.

Results

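Lipopolysaccharide (LPS), a component of the outer membrane of Gram-negative bacteria, was injected into the brain of young chicks. In the anterior preoptic hypothalamus, 42 genes with a clear resting level had 1.97 to 40.9 times that level 6 h later. These genes were picked so that 6 h of heat did not raise them past a set bound in chicks of non-conditioned parents. The 42 genes were chosen by a rule on the measured values, out of 11207 genes with raw counts. The level of a gene in a library, its CPM, was its count divided by the sum of its library and multiplied by 1000000, and changes were differences of mean log2(CPM + 1). A gene was kept where the 6 unchallenged libraries averaged at least 10 CPM, where the LPS change over both lineages was at least 1, where the heat change in the non-conditioned lineage was under 0.4, and where the lowest of 6 LPS libraries lay above the highest of 6 unchallenged ones. Of 6037 genes with at least 10 CPM unchallenged, 68 had an LPS change of at least 1. Among these 68, 17 that met the other conditions had a heat change of 0.4 or more, and 7 that met them had LPS and unchallenged libraries that overlapped. Since the LPS change, the heat change of the non-conditioned lineage and the unchallenged level chose the genes, those values are a description and were not used as a test.

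The animals were Cobb broiler chicks (Gallus gallus), 10 days after hatching, and each library was made from a whole lysate of the anterior preoptic hypothalamus. The chicks had not been heat conditioned themselves; they differed in whether their parents had been, and the groups are called the conditioned and the non-conditioned lineage. In the protocol given for the methylation samples of the study, eggs of the conditioning arm were kept at 39.5 °C for 12 h a day, starting on embryonic day 7 and ending on day 16, while control eggs stayed at 37.8 °C. The 6 groups of 3 libraries were LPS in the conditioned lineage, LPS in the non-conditioned lineage (6 h after injection into the third ventricle), heat in the conditioned lineage, heat in the non-conditioned lineage (6 h after a move from 30 to 36 °C), and unchallenged chicks, called t0, of the conditioned and of the non-conditioned lineage. No group received an injection without LPS or waited 6 h without a challenge, so that LPS cannot be told apart from injection, handling and elapsed time, nor heat from handling and elapsed time. The labels do not say that the 3 libraries of a group came from separate chicks, and p-values measure the spread between these libraries, which may in part be technical.

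As described in mammals, LPS is sensed by Toll-like receptor TLR4 and its partner proteins on microglia, macrophages and vessel cells. Signalling there runs through NF-κB and interferon regulatory factors and switches on genes of cytokines, chemokines, cell adhesion and antimicrobial defence. The preoptic hypothalamus holds neurons that sense and defend body temperature, and in mammals prostaglandin E2 made there during infection raises the defended temperature, which is fever. Heat acts on most cells through heat shock factors, which switch on chaperone genes. The deposited table repeats the Ensembl identifier where a gene name would stand, and the annotation at hand paired 0 of the 11207 identifiers, so the genes are given by identifier with no role. For the same reason the markers of microglia, vessels, neurons, glia, heterophils and red cells could not be read, and neither the labelled tissue nor the cell makeup of the libraries was checked. In a bulk lysate, more cells of a type and more RNA per cell cannot be told apart.

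Library totals were 828424 to 4589179 counts, so that 10 CPM stood for 8.3 to 45.9 counts. At t0 the totals of the conditioned lineage (828424 to 1422688) all lay below those of the non-conditioned lineage (3379626 to 4589179), and depth and lineage cannot be told apart there. Replicates 2 and 3 of the conditioned lineage at t0 stood apart from the rest. On the leading principal component (20.9% of the variance over all genes tested) they lay at -32.3 and -61.7, while the other 16 libraries lay between -19.7 and 21.5. Counts of edgeR calls are given with and without them for LPS in the conditioned lineage and for LPS averaged over both lineages. For the other edgeR comparisons that use them, the directions and medians of the 42 genes are given both ways. Counts of calls there, and directions over all genes, include them. Levels, shares and counts of libraries that do not overlap include them. None of the 42 genes was at 0 in any library, the lowest single count was 4, and all 42 passed the filter on low counts.

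Together the 42 genes took a several times larger share of all counts under LPS than under heat or at t0. Under LPS they held 0.911, 1.05 and 0.858% of the counts in the conditioned lineage and 1.05, 1.22 and 0.892% in the non-conditioned lineage. All 12 heat and t0 libraries lay between 0.164 and 0.218%. The share averaged 0.938 ± 0.0964% under LPS in the conditioned lineage and 1.05 ± 0.162% in the non-conditioned lineage (SD, n = 3 each). It was 0.193 ± 0.0271% and 0.192 ± 0.0229% under heat, and 0.203 ± 0.0134% and 0.183 ± 0.0096% at t0, in the conditioned and the non-conditioned lineage in that order. The LPS mean was 5.16 times the t0 mean, and 3.51 times without the most abundant gene. No test was made of this sum, since the rule chose its terms for being high under LPS.

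**Figure D1:**
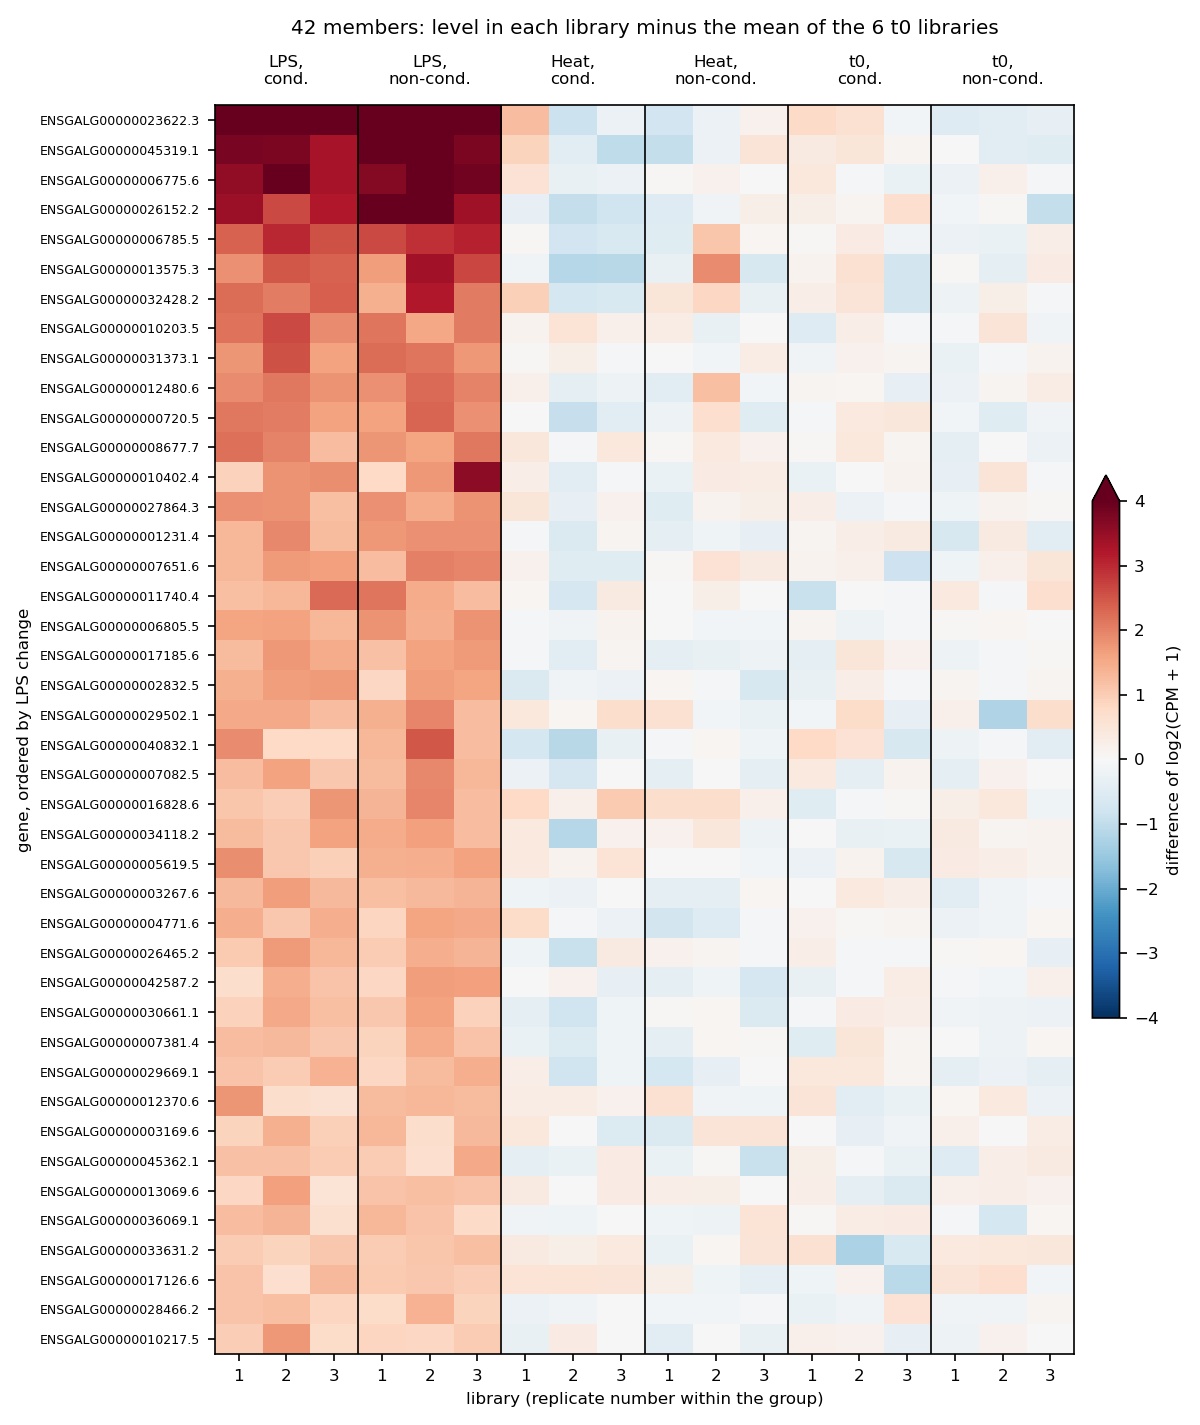
Each row is 1 of the 42 genes, ordered by LPS change, and each column 1 of the 18 libraries in their 6 groups; colour gives log2(CPM + 1) minus the mean of the 6 t0 libraries, with red for higher, blue for lower and the scale ending at 4. All 6 LPS columns are red in every row, which the rule fixed in advance. The heat and t0 columns are pale apart from single libraries such as heat replicate 2 of the non-conditioned lineage.

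The LPS change ran from 1.03 to 5.37 and was close to its lower bound for most genes. It was 3 or more in 4 genes, 2 to under 3 in 5, 1.5 to under 2 in 9 and under 1.5 in 24, with a median of 1.45. In mean CPM, 40 genes were over 2 times their t0 level under LPS, 10 were over 4 times, 4 were over 8 times and 1 was over 16 times. ENSGALG00000023622.3 had the largest change. It had 2815, 3779 and 3263 CPM under LPS in the conditioned lineage and 4167, 4933 and 1999 CPM in the non-conditioned lineage, against 137, 122 and 74.8 CPM and 56.2, 59.9 and 63.0 CPM at t0. Its lowest LPS library was 14.6 times its highest t0 library, and its mean under LPS was 40.9 times that at t0. This gene alone made up 35.1% of the counts of the 42 genes under LPS and 4.4% at t0. ENSGALG00000045319.1 came next, with a change of 3.89 at a far lower level. It had 215, 210 and 151 CPM under LPS in the conditioned lineage and 363, 275 and 209 CPM in the non-conditioned lineage. At t0 it had 18.98, 20.5 and 15.7 CPM in the conditioned lineage and 14.8, 10.2 and 10.1 CPM in the non-conditioned lineage, so that the lowest LPS library was 7.36 times the highest t0 library.

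At the other end, the changes were near 1 and single libraries came close to each other. ENSGALG00000010217.5 had the smallest change, 1.03, with 149, 251 and 127 CPM under LPS in the conditioned lineage and 137, 133 and 153 CPM in the non-conditioned lineage. Its t0 libraries had 87.2, 83.9 and 59.1 CPM in the conditioned lineage and 64.4, 85.4 and 74.3 CPM in the non-conditioned lineage, and 1 LPS library, replicate 2 of the conditioned lineage, was 1.65 times the next. ENSGALG00000028466.2, with a change of 1.04, averaged 189 ± 22.1 and 184 ± 44.5 CPM under LPS in the conditioned and the non-conditioned lineage, against 96.1 ± 33.0 and 86.0 ± 9.57 CPM at t0 (SD, n = 3 each). Over all 42 genes the lowest LPS library was 1.01 to 14.6 times the highest t0 library, with a median of 1.63, and over 2 times it in 11 genes.

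**Figure D2:**
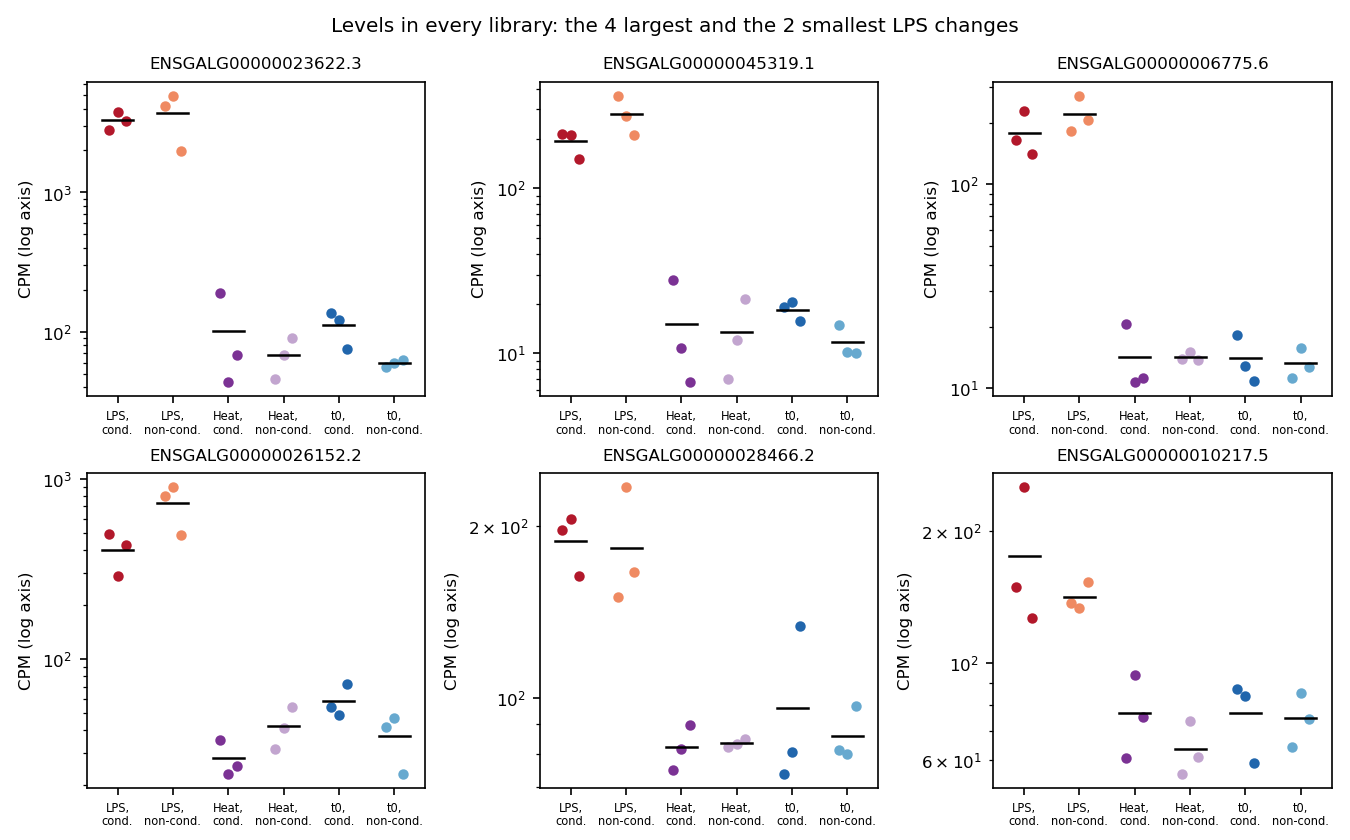
CPM on a log axis in each library, with LPS, heat and t0 from left to right and the conditioned lineage left of the non-conditioned one, for the 4 genes with the largest and the 2 with the smallest LPS change; black lines are group means. The 4 large changes leave a wide gap below the LPS points, while in ENSGALG00000028466.2 the highest t0 library (134 CPM) is close to the lowest LPS library (150 CPM).

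Genes just inside and just outside each bound of the rule differed little, and these values are given only to show where the list ends. For the LPS change the nearest were ENSGALG00000010217.5 (1.03) and ENSGALG00000028466.2 (1.04) inside and ENSGALG00000012921.6 (0.98) and ENSGALG00000002576.6 (0.95) outside. For the heat change they were ENSGALG00000008677.7 (0.39) and ENSGALG00000016828.6 (0.38) inside and ENSGALG00000042023.2 (0.40) and ENSGALG00000046098.1 (0.42) outside. For the t0 level they were ENSGALG00000029502.1 (10.3 CPM) and ENSGALG00000033631.2 (10.8 CPM) inside and ENSGALG00000014684.6 (9.87 CPM) and ENSGALG00000003932.5 (9.56 CPM) outside. For the lowest LPS over the highest t0 library they were ENSGALG00000017126.6 (1.01) and ENSGALG00000040832.1 (1.02) inside and ENSGALG00000008127.5 (0.998) and ENSGALG00000002160.5 (0.989) outside.

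The genes spanned a wide range of levels before LPS. The library method reads the 3′ ends of transcripts, so CPM was not divided by length. Mean t0 levels ran from 10.3 to 322 CPM with a median of 30.9, and 16 genes were under 20 CPM while 12 were at 50 CPM or more. Mean LPS levels ran from 21.2 to 3492 CPM with a median of 105, and 15 genes were over 100 CPM in every LPS library, against 2 genes in every t0 library. ENSGALG00000008677.7 was the most abundant gene at t0 and stood second under LPS. It had 1463, 1243 and 739 CPM under LPS in the conditioned lineage and 1070, 939 and 1371 CPM in the non-conditioned lineage, against 329, 425 and 343 CPM and 243, 322 and 267 CPM at t0. ENSGALG00000006805.5, the next most abundant at t0, varied least there, with 138 to 174 CPM over the 6 t0 libraries and 401 to 566 CPM over the 6 LPS libraries. The lowest levels under LPS were those of ENSGALG00000033631.2 (18.9 to 23.4 CPM over 6 libraries) and ENSGALG00000003169.6 (20.6 to 34.3 CPM). In ENSGALG00000033631.2 the t0 libraries were 15.5, 3.42 and 6.04 CPM in the conditioned lineage and 12.9, 13.3 and 13.6 CPM in the non-conditioned lineage. Its t0 mean thus rests partly on the libraries that stood apart, and its LPS change, averaged over both lineages in edgeR, was 0.60 on the log2 scale without them and 1.01 ± 0.23 (SE) with all libraries. The 4 genes highest under LPS held 57.1% of the counts of the 42 genes there.

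The spread over libraries of 1 condition, both lineages pooled, differed widely between genes. The coefficient of variation over 6 LPS libraries was 7.45 to 88.5% with a median of 20.9%, and counting alone would give a median of 7.35%. Over 6 t0 libraries it was 7.97 to 48.3% with a median of 23.4%, and counting alone would give 13.8%. Replicate 2 of the non-conditioned lineage was the highest LPS library for 18 of the 42 genes and for 16.7% of all 7921 genes tested, and replicate 3 of the conditioned lineage was the lowest for 16 genes and for 22.4% of all genes tested. The largest spread, 88.5%, belonged to ENSGALG00000010402.4. This gene had 60.7, 111 and 118 CPM under LPS in the conditioned lineage and 55.2, 106 and 385 CPM in the non-conditioned lineage, so that 1 library was 3.27 times the next. At t0 it had 26.0, 31.7 and 35.0 CPM in the conditioned lineage and 24.8, 45.8 and 29.6 CPM in the non-conditioned lineage. Between pairs of genes, after each lineage was centred, the median Pearson r was 0.162 over the 6 LPS libraries, 0.243 over the 6 heat libraries and 0.041 over the 6 t0 libraries. Over all genes of at least 10 CPM the medians were 0.028, 0.080 and 0.046 in the same order; the points share library depth, and no test was made.

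In each lineage taken alone the LPS change was positive for all 42 genes, which the rule fixed by setting every LPS library above every t0 library. It was at least 1 in both lineages for 34 genes. It was under 1 in the conditioned lineage for ENSGALG00000040832.1 (0.93), ENSGALG00000029669.1 (0.87) and ENSGALG00000036069.1 (0.85). It was under 1 in the non-conditioned lineage for ENSGALG00000003169.6 (0.93), ENSGALG00000013069.6 (0.94), ENSGALG00000033631.2 (0.69), ENSGALG00000017126.6 (0.69) and ENSGALG00000010217.5 (0.91). With edgeR's quasi-likelihood test over all 18 libraries and p-values adjusted over 7921 genes at a threshold of 0.05, 32 of the 42 genes were called higher than t0 in the conditioned lineage, where 1.17% of all genes were. In the non-conditioned lineage 39 of 42 were called higher, where 2.21% of all genes were, and the 3 not called were ENSGALG00000003169.6, ENSGALG00000033631.2 and ENSGALG00000017126.6. Averaged over both lineages all 42 were called, against 2.92% of all genes. The rule chose the genes on these libraries, and nothing is read from the counts. Leaving out replicates 2 and 3 of the conditioned lineage at t0 left 1 t0 library there. Calls in that lineage and averaged over both then fell, among the 42 genes and among all genes, as given below. The median edgeR log2 fold change was 1.48 in the conditioned lineage and 1.62 in the non-conditioned lineage, against 0.02 and 0.00 over all genes tested.

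**Figure D3:**
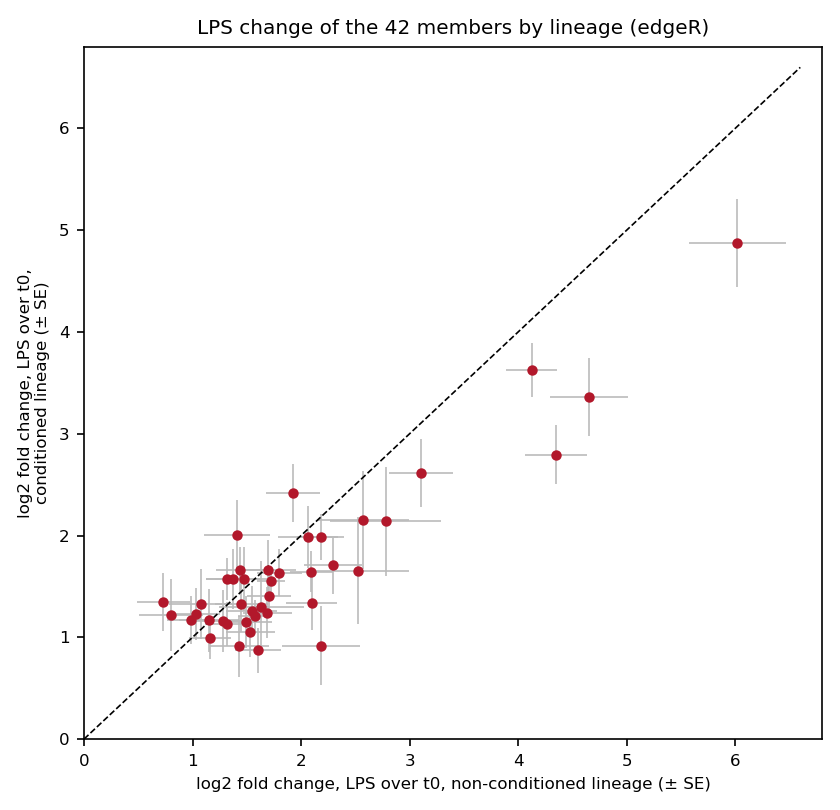
LPS change over t0 of the 42 genes as edgeR log2 fold change ± SE (3 against 3 libraries), with 1 lineage on each axis and the diagonal marking equal change. All points lie above 0 on both axes, which the rule largely fixed in advance. ENSGALG00000023622.3 lies farthest out, at 4.87 in the conditioned and 6.02 in the non-conditioned lineage.

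Whether the parents' conditioning went with a different level of these genes under LPS was tested between the 3 conditioned and 3 non-conditioned LPS libraries. The rule did not use this difference, but it used the mean and the lowest value of the same 6 libraries, which limits how low either group could lie. None of the 42 genes passed in edgeR, nor did any of the 7921 genes tested (0%), with 301 of these at an unadjusted p under 0.05. DESeq2 called 0 as well. Of the 42, 24 were lower and 18 higher in the conditioned lineage, the median log2 difference was -0.05, and 37 had a 95% interval inside ±1. In no gene did the 3 conditioned libraries lie wholly above or below the 3 non-conditioned ones, as they did in 9.25% of all genes tested. ENSGALG00000026152.2 was the single gene of the 42 at an unadjusted p under 0.05. It had 491, 287 and 427 CPM under LPS in the conditioned lineage, against 804, 894 and 486 CPM in the non-conditioned lineage. Only the highest conditioned library reached the lowest non-conditioned one. The log2 difference was -0.81 ± 0.25 (SE), with a 95% interval of -1.33 to -0.29 and an edgeR adjusted p of 0.999. ENSGALG00000010402.4 had the lowest estimate, -0.88 ± 0.45, and an interval of -1.83 to 0.07. That estimate rests on replicate 3 of the non-conditioned lineage, without which it was 0.31. The highest estimates were those of ENSGALG00000010203.5 (0.37 ± 0.24, interval -0.14 to 0.87) and ENSGALG00000010217.5 (0.35 ± 0.22, interval -0.11 to 0.82).

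The size of the LPS response, LPS over t0, was then compared between the lineages. The rule did not use this difference, but it chose the genes on the same LPS and t0 libraries. Its heat bound also used the t0 mean of the non-conditioned lineage, and not that of the conditioned one. The test is therefore not independent of the rule. The difference equals the lineage difference under LPS minus that at t0. An unadjusted edgeR p under 0.05 was found in 483 of all genes (6.1%) and in 6 of the 42. After adjustment none of the 42 genes and none of the 7921 tested (0%) passed in edgeR. DESeq2 also called 0. The estimate, conditioned minus non-conditioned, was below 0 in 30 of the 42 genes (71.4%), against 47.9% of all genes tested, and its median was -0.24. Without replicates 2 and 3 of the conditioned lineage at t0 it was below 0 in 28 genes, with a median of -0.22. Depth at t0 went with lineage and enters all of these differences, and its part in them was not tested. ENSGALG00000026152.2 had the lowest estimate, -1.55 ± 0.38 on the log2 scale (interval -2.35 to -0.75, edgeR unadjusted p = 0.00066 and adjusted p = 0.653). Its t0 libraries were 54.1, 48.8 and 72.4 CPM in the conditioned lineage, all above the 41.9, 46.9 and 23.1 CPM of the non-conditioned lineage. It was thus lower under LPS and higher at t0 in the conditioned lineage, though neither difference passed. ENSGALG00000045319.1 had -1.29 ± 0.52 (interval -2.38 to -0.20, edgeR adjusted p = 0.776). The highest were ENSGALG00000017126.6, with 0.62 ± 0.37 (interval -0.16 to 1.40), and ENSGALG00000011740.4, with 0.60 ± 0.46 (interval -0.36 to 1.56). In 17 genes the interval lay inside ±1.

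**Figure D4:**
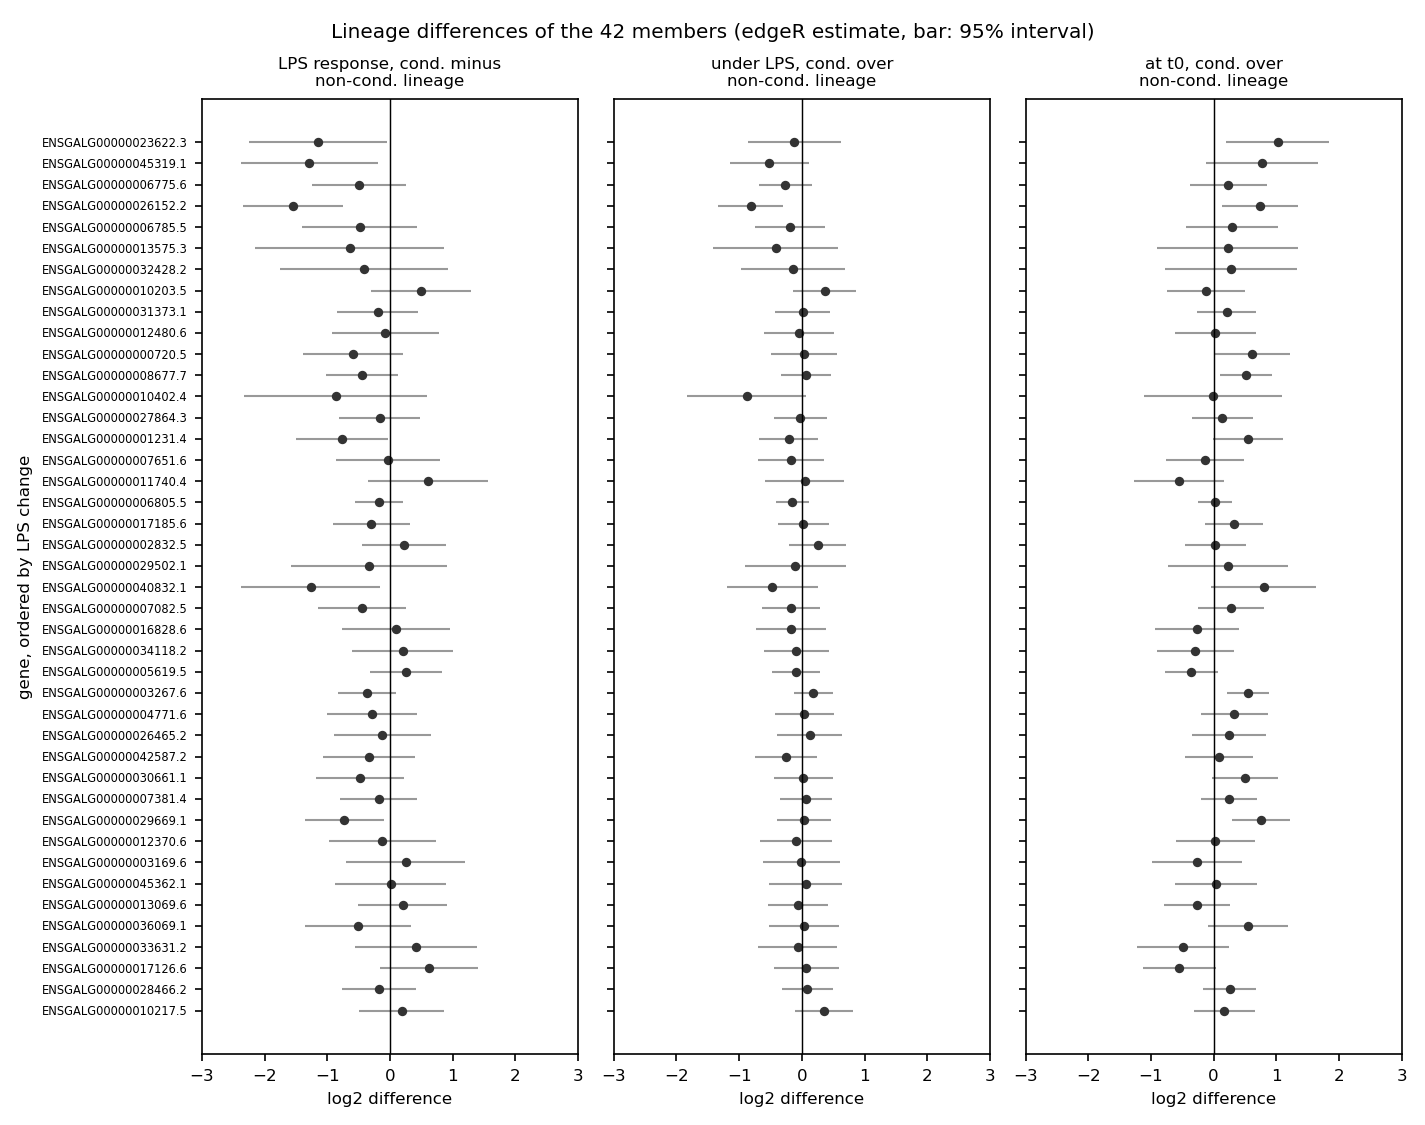
edgeR log2 differences, conditioned against non-conditioned lineage, for the 42 genes ordered by LPS change, with bars for the 95% interval: the LPS response (left), the level under LPS (middle) and the level at t0 (right). Most points lie left of 0 for the response (30 of 42) and right of 0 at t0 (31 of 42). Since the left difference is the middle one minus the right one, these 2 counts are not independent. Medians were -0.24, -0.05 and 0.23 from left to right, and no gene passed the adjusted threshold in any of the panels.

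At t0 the lineages were compared on libraries whose mean and highest value the rule had used, and whose depth differed. Through its heat bound the rule also used the t0 mean of the non-conditioned lineage, and not that of the conditioned one. The comparison is therefore not independent of the rule. None of the 42 genes and none of the 7921 tested (0%) passed in edgeR. Its unadjusted p was under 0.05 in 1243 of all genes (15.7%) and in 6 of the 42. DESeq2 called 245 of all genes and 2 of the 42, ENSGALG00000003267.6 and ENSGALG00000029669.1. ENSGALG00000029669.1 had 60.5, 60.8 and 48.3 CPM at t0 in the conditioned lineage, against 35.1, 38.4 and 35.2 CPM in the non-conditioned lineage, with a log2 difference of 0.76 ± 0.22 and an edgeR adjusted p of 0.12. ENSGALG00000003267.6 had 94.2, 122 and 112 CPM in the conditioned lineage, against 69.1, 85.2 and 88.8 CPM in the non-conditioned lineage, with 0.55 ± 0.16 and an edgeR adjusted p of 0.12. In both genes the groups of libraries did not overlap. Over the 42 genes, 31 estimates were above 0 and 26.2% below, against 51.9% below 0 among all genes tested, and the median was 0.23. Without replicates 2 and 3 of the conditioned lineage 15 were below 0 and the median was 0.23. The 3 conditioned libraries lay above all 3 non-conditioned ones in 8 of the 42 genes, where 6.21% of all genes did. They lay below in 3, ENSGALG00000034118.2, ENSGALG00000005619.5 and ENSGALG00000003169.6, where 15.1% of all genes did. The highest estimates were those of ENSGALG00000023622.3 (1.02 ± 0.39, interval 0.20 to 1.85, edgeR adjusted p = 0.215) and ENSGALG00000040832.1 (0.80 ± 0.40, interval -0.04 to 1.63). The lowest were those of ENSGALG00000011740.4 (-0.55 ± 0.35, interval -1.27 to 0.17) and ENSGALG00000017126.6 (-0.54 ± 0.28, interval -1.13 to 0.04).

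In 40 of the 42 genes all 6 heat libraries lay below the lowest LPS library, as they did in 2.22% of all genes tested. The rule largely fixed this count, and nothing is read from it. The gap was narrow in some genes: ENSGALG00000017126.6 had 28.1, 27.99 and 27.2 CPM under heat in the conditioned lineage, against a lowest LPS value of 30.9 CPM. The other 2 had 1 heat library each above it, ENSGALG00000013575.3 with 182 CPM in replicate 2 of the non-conditioned lineage against a lowest LPS value of 155 CPM, and ENSGALG00000016828.6 with 30.3 CPM in replicate 3 of the conditioned lineage against 29.2 CPM. In the non-conditioned lineage the rule held the heat change under 0.4, so that a count of 0 calls was largely fixed in advance. There edgeR called 0 of the 42 genes and 4 of all genes (0.0505%), and DESeq2 called 0 of the 42 and 27 of all genes. An unadjusted edgeR p under 0.05 was found in 531 of all genes (6.7%) and in 2 of the 42. These 2 were ENSGALG00000008677.7 (0.52 ± 0.20, interval 0.11 to 0.93) and ENSGALG00000006785.5 (0.70 ± 0.31, interval 0.05 to 1.36). The edgeR estimate, which uses TMM factors, was above 0 in 29 of the 42 and below 0 in 31%, against 48.9% below 0 among all genes tested. It was 0.4 or more in 8 of the 42, a count not made over all genes. Scaling bears on this bound. With column sums the median heat change over genes of at least 10 CPM was -0.13 in the non-conditioned lineage, and with TMM factors it was -0.01. The median of the 42 genes was -0.02 with column sums and 0.10 with TMM factors. With TMM factors the rule would keep 41 genes, 37 of them among the 42, and the 5 lost had a heat change of 0.43 to 0.52: ENSGALG00000006785.5, ENSGALG00000013575.3, ENSGALG00000032428.2, ENSGALG00000008677.7 and ENSGALG00000016828.6. In ENSGALG00000008677.7 all 3 heat libraries of the non-conditioned lineage (326, 411 and 353 CPM) lay above those at t0 (243, 322 and 267 CPM), though narrowly. How many of all genes did so was not counted. In ENSGALG00000013575.3 the mean heat change came mainly from 1 library. It had 39.3, 182 and 30.8 CPM under heat in the non-conditioned lineage, against 49.9, 36.6 and 61.2 CPM at t0. Replicate 2 of the non-conditioned heat group was over 1.5 times the next library in 4 of the 42 genes, a count not made over all genes. These were ENSGALG00000013575.3, ENSGALG00000012480.6, ENSGALG00000006785.5 and ENSGALG00000000720.5. That replicate was the highest of its group in 22 of the 42 genes and in 32.4% of all genes tested.

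Heat in the conditioned lineage was not bounded by the rule, although its t0 libraries had served it. With column sums the heat change there was 0.4 or more in 6 of the 42 genes and -0.4 or less in 9. These counts were not made over all genes. None of the 42 genes and none of the 7921 tested (0%) passed in edgeR. Its unadjusted p was under 0.05 in 1034 of all genes (13.1%) and in 10 of the 42. DESeq2 called 44 of all genes and 1 of the 42. This was ENSGALG00000026152.2, which had 35.6, 23.05 and 25.4 CPM under heat, all below its 54.1, 48.8 and 72.4 CPM at t0. Its log2 fold change was -1.08 ± 0.31 (interval -1.73 to -0.43) with an edgeR adjusted p of 0.263, and -1.12 with an adjusted p of 0.0348 in DESeq2. Its heat values thus lay below, and its LPS values above, those at t0. ENSGALG00000040832.1 had the lowest estimate, -1.21 ± 0.44 (interval -2.13 to -0.30), with 6.88, 4.94 and 9.37 CPM under heat, against 21.1, 17.98 and 7.24 CPM at t0. ENSGALG00000016828.6 had the highest, 0.90 ± 0.32 (interval 0.23 to 1.57, edgeR adjusted p = 0.285), with 25.3, 16.5 and 30.3 CPM under heat, against 9.84, 13.7 and 14.5 CPM at t0. ENSGALG00000017126.6 came next, with 0.73 ± 0.29 (interval 0.13 to 1.33). Of the 42 genes, 28 were below 0 (66.7%), against 48.1% of all genes tested, and the median was -0.12. Without replicates 2 and 3 of the conditioned lineage at t0, 27 were below 0 with a median of -0.17. All 3 heat libraries lay below all 3 t0 libraries in ENSGALG00000026152.2, ENSGALG00000030661.1 and ENSGALG00000036069.1, where 5.28% of all genes did. They lay above in ENSGALG00000016828.6, ENSGALG00000005619.5 and ENSGALG00000017126.6, where 10.0% of all genes did. Replicate 1 was over 1.5 times the next heat library of this lineage in 8 of the 42 genes, a count not made over all genes. Among them was ENSGALG00000023622.3, with 191, 43.6 and 68.3 CPM under heat, against 137, 122 and 74.8 CPM at t0.

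**Figure D5:**
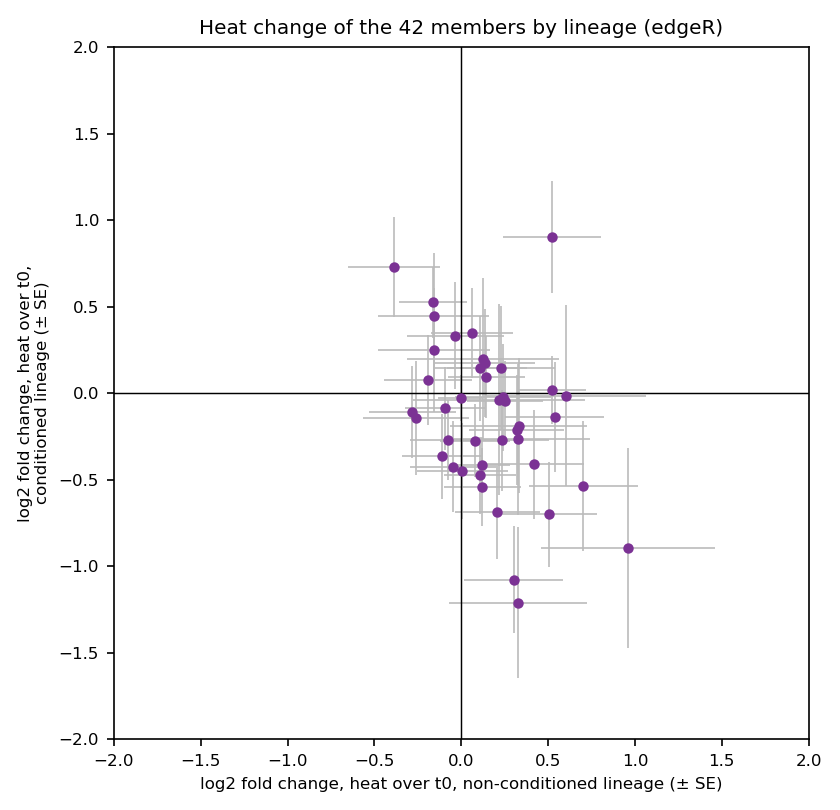
Heat change over t0 of the 42 genes as edgeR log2 fold change ± SE (3 against 3 libraries), with the non-conditioned lineage, whose change the rule bounded from above, on the horizontal axis and the conditioned lineage on the vertical axis. Estimates run from -0.39 to 0.96 in the non-conditioned and from -1.21 to 0.90 in the conditioned lineage, and none passed the adjusted threshold.

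The heat response was also set between the lineages, with the non-conditioned side bounded from above by the rule, so that the values are a description. None of the 42 genes and none of all genes (0%) passed in edgeR. Its unadjusted p was under 0.05 in 1096 of all genes (13.8%) and in 10 of the 42. DESeq2 called 123 of all genes and 1 of the 42, ENSGALG00000026152.2, with an estimate of -1.43, where edgeR gave -1.38 ± 0.42. Its heat libraries were 35.6, 23.05 and 25.4 CPM in the conditioned lineage, against 31.4, 41.1 and 54.0 CPM in the non-conditioned lineage. Of the 42 estimates, conditioned minus non-conditioned, 28 were below 0 (66.7%), against 48.8% of all genes tested, with a median of -0.28. Without replicates 2 and 3 of the conditioned lineage at t0, 29 were below 0 and the median was -0.24. The lowest were ENSGALG00000013575.3 (-1.85 ± 0.77, interval -3.45 to -0.25) and ENSGALG00000040832.1 (-1.54 ± 0.59, interval -2.77 to -0.30). The highest were ENSGALG00000017126.6 (1.11 ± 0.39, interval 0.30 to 1.93) and ENSGALG00000005619.5 (0.69 ± 0.28, interval 0.09 to 1.28). Between the lineages under heat, edgeR called none of the 42 genes and 2 of all genes (0.0252%). Its unadjusted p was under 0.05 in 466 of all genes (5.9%) and in 7 of the 42. DESeq2 called 0 of the 42 and 10 of all genes. Estimates there ran from -1.63 ± 0.54 in ENSGALG00000013575.3 to 0.60 ± 0.26 in ENSGALG00000004771.6. They are a description, since the rule bounded the non-conditioned heat level from above. Of the 42, 22 were below 0 and 20 above, with a median of -0.02, against a median of 0.23 at t0. The difference of the heat response equals this difference minus that at t0, where depth went with lineage. The part of depth was not tested. Under heat ENSGALG00000013575.3 had 43.4, 21.4 and 21.9 CPM in the conditioned lineage and 39.3, 182 and 30.8 CPM in the non-conditioned lineage. Replicate 2 of the non-conditioned lineage was 4.62 times the next there and weighs on both estimates of this gene.

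Over all 18 libraries, log2(CPM + 1) of each of the 42 genes was set against the mean profile of the 42. Pearson r was 0.70 to 0.99 with a median of 0.92, and over 0.9 in 28 genes. The rule itself required the LPS libraries to lie above the t0 libraries, so these values are a description. The 4 genes outside the list with the highest r were ENSGALG00000045199.1 (0.975), ENSGALG00000043064.1 (0.973), ENSGALG00000027716.2 (0.970) and ENSGALG00000017186.5 (0.964). All 4 had an LPS change over the bound and were left out by a heat change of 0.44 to 0.59 in the non-conditioned lineage. The 17 genes left out by heat alone had a median LPS change of 1.86, against 1.45 in the 42. In the conditioned lineage the heat libraries chose neither list, though the t0 libraries helped to choose both. The median heat change there was -0.08 in the 42 genes and -0.41 in the 17, against 0.05 over all genes of at least 10 CPM. The 62 genes under 10 CPM at t0 that met the other conditions had a median LPS change of 1.78 and held 0.101% of the counts under LPS and 0.019% at t0, against 0.995% and 0.193% in the 42. These lists were cut by measured values, and their differences were not tested.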

How the data were processed

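RNA was measured in 18 libraries (6 groups of 3). Per the labels' protocols, bulk MARS-seq libraries, which count the 3′ ends of transcripts, were made from 15 ng of RNA and sequenced as single reads. The submitters' processing notes list cutadapt, STAR, HTSeq and DESeq2 with galGal5; their versions, any collapse of molecular identifiers, the strand setting and how the genes of the table were picked are not given in the sources here. The authors deposited raw counts per gene, per the file headers, with 18 columns of normalized values, not used here. The 10 bisulfite libraries were not analysed here. Paralogs and overlapping genes were not judged, since no gene models were at hand.

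CPM used column sums, with a pseudocount of 1 on the log2 scale. Tests used edgeR 4.0.16 in R 4.3.3: TMM factors, filtering by group (7921 genes, 99.5% of counts), 1 group-means quasi-likelihood model over all 18 libraries, Benjamini-Hochberg adjustment over the genes tested, threshold 0.05. SE was the log2 fold change over the square root of F, and intervals are 95%. The edgeR steps were tested on simulated counts for LPS against t0 in the conditioned lineage only, with no libraries that stood apart. Counting errors cover counting only.

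The 42 genes, lists and alternatives were chosen with earlier results of these data known. The prepared gene lists need gene names and could not be applied. Genes named are the 2 highest and 2 lowest of each ordering or tested difference, those nearest each bound and the 4 outside genes most like the mean profile. For some, not all, counts of 5 or fewer the genes behind them are named too. Genes called only by DESeq2 were added after their values were seen. Alternatives were DESeq2 1.42.0, median-ratio factors, no filter, the compared groups alone, each library left out, the 2 t0 libraries that stood apart left out, a replicate block by title number or by library number, and other bounds of the rule. Replicate numbers are those of the titles. Libraries with the same title number did not deviate together: over 7 pairs of groups their correlations ran from -0.123 to 0.281, and in 0 pairs were all 3 above 0.1, so the numbers were not taken to pair samples. The descriptions carry other library numbers, and a check of these was added after the data were seen. Over 16 same-numbered pairs the correlations ran from -0.297 to 0.191, and in 0 of the 2 pairs of groups that share 3 numbers were all above 0.1.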

Additional observations from a re-analysis of the deposited data

How the results depend on the processing

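With at least 20 CPM at t0 the list was 26 genes, all among the 42; under the 9 other bounds and scalings tried it was 31 to 56 genes. Leaving out 1 library at a time gave 38 to 48 genes, 37 to 42 of them among the 42, and leaving out both t0 libraries that stood apart gave 43, with 35 shared. DESeq2 called 1 of the 42 for heat in the conditioned lineage, 1 for the difference of the heat response and 2 for the lineages at t0, where edgeR called 0. With 1 library left out, the members called at t0 were 0 to 2, where 0 to 441 of all genes were called. The 2 came without replicate 1 of the conditioned lineage, which leaves only the t0 libraries that stood apart in that group, and nothing is read from them. Under LPS the members called with 1 library left out were 23 to 31 in the conditioned lineage, 35 to 37 in the non-conditioned lineage and 42 averaged over both. In the same order, 63 to 126, 144 to 171 and 224 to 327 of all genes were called, in either direction. The rule chose the members on these libraries, and nothing is read from their counts. Without t0 replicates 2 and 3 of the conditioned lineage, 17 were called in the conditioned lineage. There the lone t0 library is assumed to vary like the other groups, and the cause was not tested. Over all genes, leaving out 1 library called 0 to 209 for heat in the conditioned lineage, 0 to 243 for the difference of the heat response and 0 to 441 at t0, against 0 each with all libraries. DESeq2 called 44, 123 and 245 in the same order, and 157 for LPS in the conditioned lineage, where edgeR called 101 with all libraries, 63 to 126 with 1 library left out and 38 without the t0 libraries that stood apart. Averaged over both lineages, leaving those out gave 39 of the 42 genes and 176 of all genes, against 290 of all genes with them.

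The replicate block gave 34, 39 and 42 members called for LPS in the conditioned lineage, the non-conditioned lineage and their average, and 0 in each other comparison. A block by the library number of the descriptions, chosen after seeing the data, gave 32, 38 and 42, and 0 in each other comparison. Neither set of numbers passed the check of pairing, so these are no paired results. Calls over all genes under the blocks are not given here. Since the rule chose the members for being high under LPS, nothing is read from their counts. Stability was checked for 27 estimates, the ends of some comparisons and the genes called only by DESeq2. The comparisons were LPS averaged over both lineages, heat in the conditioned lineage, the lineages under LPS and at t0, and both differences of response. Ends for LPS in each lineage, heat in the non-conditioned lineage and the lineages under heat were not checked so. Of 425 values of these estimates under the alternatives, 418 kept their direction and side of the threshold and 5 passed it newly. Of those 5, DESeq2 gave ENSGALG00000026152.2 for heat in the conditioned lineage (-1.12) and for the difference of the heat response (-1.43), and ENSGALG00000003267.6 (0.57) and ENSGALG00000029669.1 (0.78) at t0. The other came without t0 replicate 1 of the conditioned lineage, in ENSGALG00000003267.6 (0.66). ENSGALG00000033631.2 under LPS fell short without the t0 libraries that stood apart (0.60). The lineage difference of ENSGALG00000010402.4 under LPS reversed to 0.31 without LPS replicate 3 of the non-conditioned lineage and ran from -1.31 to 0.31 with 1 LPS library left out. In the shallowest library 10 CPM was 8.3 counts.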
